A study of Mus musculus with 6 samples.

Results

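The genes described here, with 2 exceptions named further on, encode subunits, regulators or assembly factors of the proteasome, the barrel-shaped protease that degrades ubiquitin-tagged proteins. They were taken as the rows of the deposited table whose name starts with Psm, then a letter from a to g, then a digit. The rule found 51 of the 25361 rows, on 16 chromosomes. The proteasome core is a stack of rings: alpha subunits (Psma genes) form the gate, and beta subunits (Psmb genes) carry the proteolytic sites. A regulatory particle caps the core, with a base of ATPases (Psmc genes) that unfolds substrates and a lid (most Psmd genes) that removes ubiquitin. In immune cells, or after interferon-gamma, the catalytic subunits Psmb5, Psmb6 and Psmb7 can be replaced by Psmb8, Psmb9 and Psmb10, which gives the immunoproteasome. In heart muscle the ubiquitin-proteasome system is known for turning over damaged and contractile proteins.

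A group of 3 hearts came from mice treated with ISO+L-NAME over 6 weeks, and 3 hearts came from untreated control mice. All were wild-type (WT) C57BL/6N males aged 12 weeks. L-NAME inhibits nitric oxide synthase, and the series title names the treatment as a model of HFpEF, heart failure with preserved ejection fraction. Messages were counted by 3′-end sequencing, which reads each message at its polyadenylated end, so counts do not grow with gene length and levels can be set side by side between genes. The tissue was bulk heart, so fewer cells of a type and less RNA per cell cannot be told apart.

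The ISO+L-NAME libraries held 2354157 to 2637364 counts and the control libraries 2217974 to 2448484. Of all rows, 8531 had enough counts to be tested. Messages of the mitochondrial genome took 45.5% to 47.8% of counts in ISO+L-NAME hearts and 53.6% to 56.7% in control hearts. All 12 listed cardiomyocyte markers were tested, at a summed CPM (counts scaled to a common library size) of 57258 to 61477 in ISO+L-NAME hearts and 63933 to 66394 in control hearts, and 2 rose and 4 fell. Of 9 fibroblast markers tested 5 rose and 0 fell, and of 9 endothelial markers none was called. Among all tested genes 3.41% were called higher and 2.68% lower. The part of cell makeup in the proteasome values was not tested. Levels below are CPM of library sizes scaled by TMM, a method that sets the bulk of genes to no change. Differences are given as log2(ISO+L-NAME / control) ± SE, the standard error. Adjusted p-values are those of the edgeR quasi-likelihood test, corrected by Benjamini-Hochberg over all genes tested.

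None of the proteasome genes passed the test in ISO+L-NAME hearts with TMM scaling. Of the 51 rows, 48 had enough counts, and edgeR called 0 of them at an adjusted p under 0.05, against a background of 6.10% of all tested genes (520 of 8531; 301 without control 1). By direction, 0 members were called higher, against 3.41% of all genes, and 0 lower, against 2.68%. DESeq2 and limma-voom also called 0 members, against 3.93% and 5.83% of all genes. So did RLE scaling, a robust fit, no filter on low counts, a filter at 5 CPM on average, mitochondrial genes left out and the replicate number as a block, against 6.00%, 6.49%, 5.12%, 6.14%, 5.84% and 6.56%. Leaving out ISO+L-NAME 1, 2 or 3 also gave 0, against 4.88%, 4.14% and 4.20%, and leaving out control 1, 2 or 3 gave 0, against 3.37%, 4.65% and 5.52%. With Psme2 and its copy Psme2b counted as 1 gene the count was 0 against 6.12%. At an unadjusted p under 0.05 there were 2 members, Psma6 and Psmb7, which is 4.17% of the 48, against 18.1% of all tested genes. The median log2 change of the members was -0.06, beside -0.01 for all tested genes, with 32 members below 0 and 16 above. Single members ran from -0.51 for Psmg3 to 0.42 for Psmf1.

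The 95% interval of the difference lay within 1.5-fold in either direction for 35 of the 48 members, and for 33 of the 35 members with a mean of at least 20 CPM. It reached a 2-fold change for 2 members, the low-count genes Psmg3 and Psme2b. The median absolute log2 change was 0.12 among members, at a median SE of 0.15, and 0.21 among all tested genes, at a median SE of 0.23. Among genes with a mean of at least 20 CPM it was 0.11 for the 35 members and 0.17 for all 3624 genes.

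**Figure D1:**
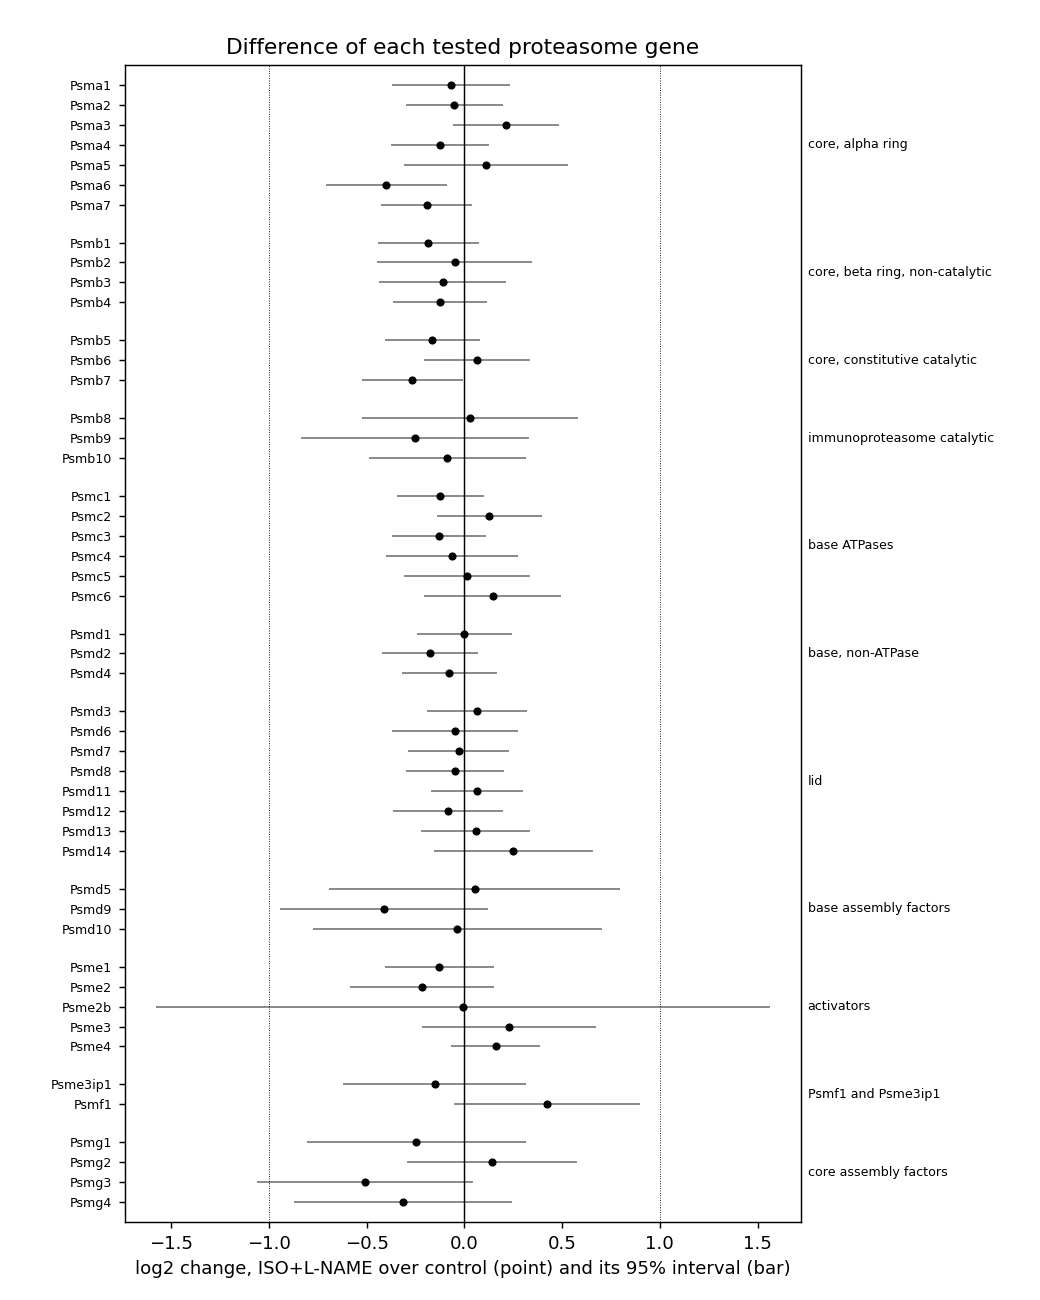
Log2 change of each of the 48 tested proteasome genes (horizontal axis, ISO+L-NAME over control) with its 95% interval, grouped by role; dotted lines mark 2-fold changes. All points lie between -0.51 and 0.42, and the intervals of 46 genes include 0.

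The pool as a whole took nearly equal mean shares of nuclear-gene messages in the 2 groups. The 51 rows summed to 0.567%, 0.579% and 0.564% of the counts of nuclear genes in the ISO+L-NAME hearts, and to 0.560%, 0.580% and 0.570% in the control hearts. The groups overlapped, with means of 0.570% ± 0.00789 in ISO+L-NAME hearts and 0.570% ± 0.0103 in control hearts (SD, n = 3 each). As a share of all counts, mitochondrial messages included, the rows took 0.309%, 0.302% and 0.297% in ISO+L-NAME hearts and 0.252%, 0.251% and 0.264% in control hearts. On that scale every ISO+L-NAME heart was above every control heart, beside the lower mitochondrial share in ISO+L-NAME hearts.

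**Figure D2:**
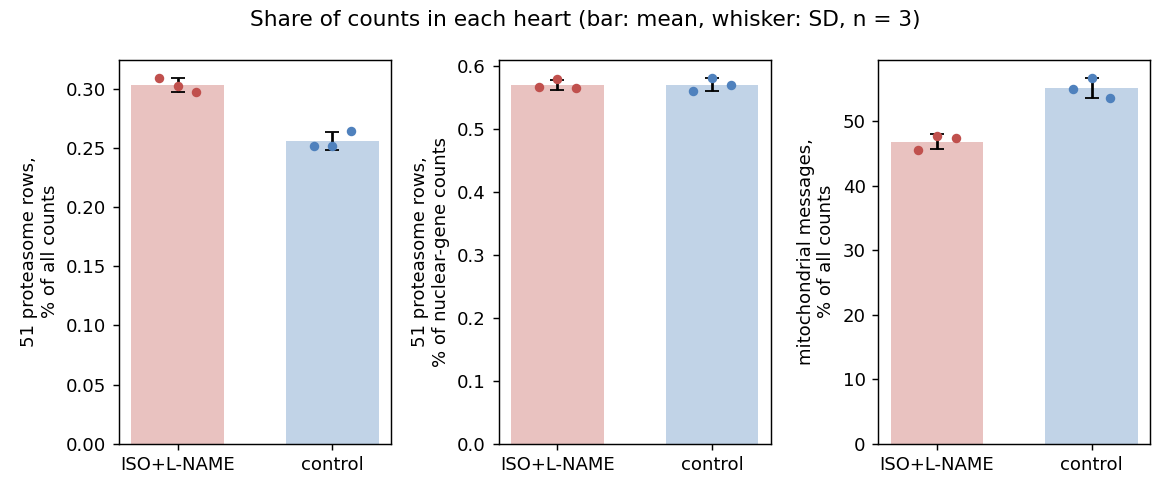
Share of counts held by the 51 proteasome rows, out of all counts (left) and out of nuclear-gene counts (middle), and by mitochondrial messages (right), in percent; points are hearts, bars are means and whiskers are SD (n = 3). The nuclear share averaged 0.570% in both groups, while the mitochondrial share was 46.8% in ISO+L-NAME hearts and 55.1% in control hearts.

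The sign of most members' differences depended on the scaling. With library sizes taken as total counts alone, the median log2 change of all genes was 0.30 and that of the members 0.25, with 44 of 48 above 0. On that scale edgeR called 5 members higher and 0 lower, 10.4% of those tested, against a background of 16.5% of genes called higher, 0.844% called lower and 17.3% in either direction. They were the alpha subunit Psma3 (0.52 ± 0.13), the base ATPase Psmc2 (0.43 ± 0.13), the lid subunit Psmd11 (0.37 ± 0.11), the nuclear activator Psme4 (0.46 ± 0.11) and the inhibitor Psmf1 (0.72 ± 0.23). Their edgeR adjusted p-values there were 0.0114, 0.0297, 0.0340, 0.00754 and 0.0380. Set against the all-gene median, the members' median was -0.05 under both scalings.

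**Figure D3:**
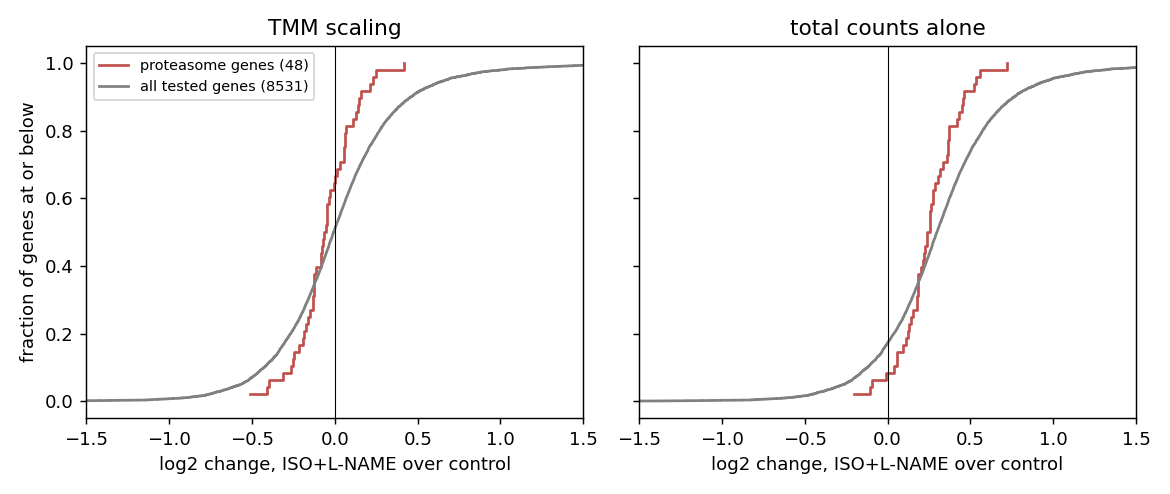
Cumulative distribution of log2 changes (ISO+L-NAME over control) of the 48 tested proteasome genes and of all 8531 tested genes, with TMM scaling (left) and with total counts alone (right). Both curves shift together: the proteasome median is -0.06 with TMM and 0.25 with total counts, beside -0.01 and 0.30 for all genes.

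The core particle, made of 14 constitutive subunits, summed to 943, 973 and 1013 CPM in ISO+L-NAME hearts and 1047, 1126 and 992 CPM in control hearts. The groups overlapped. The median log2 change of its genes was -0.12, with 11 below 0 and 3 above, and none was called. Psma6, of the alpha ring, had the smallest unadjusted p of all members. It had 37.9, 57.8 and 48.5 CPM in ISO+L-NAME hearts, against 63.9, 66.0 and 59.2 CPM in control hearts. Every ISO+L-NAME heart was below every control heart, but the difference of -0.40 ± 0.15 did not pass (edgeR adjusted p = 0.135). Psma7 was likewise separated, at 105, 122 and 108 CPM in ISO+L-NAME hearts and 127, 130 and 126 CPM in control hearts (-0.19 ± 0.11, edgeR adjusted p = 0.407). Psma3 differed in the other direction by 0.21 ± 0.13, with overlapping groups (edgeR adjusted p = 0.442). The non-catalytic beta subunits Psmb1 to Psmb4 ran from -0.18 to -0.05.

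Of the constitutive catalytic subunits, Psmb7 carries the trypsin-like site. It had 63.1, 74.7 and 77.7 CPM in ISO+L-NAME hearts and 86.7, 89.6 and 82.3 CPM in control hearts. The groups did not overlap, and the difference was -0.27 ± 0.12 (edgeR adjusted p = 0.254). The end of Psmb7 lies inside Nek6, a gene on the opposite strand with 30 counts in all libraries together, and whether the counting used strand is not given in the sources used here. Psmb5, the chymotrypsin-like subunit, had 89.7, 88.8 and 98.2 CPM in ISO+L-NAME hearts and 111, 103 and 95.8 CPM in control hearts (-0.16 ± 0.12, edgeR adjusted p = 0.531). Psmb6, the caspase-like subunit, had 54.2, 57.4 and 58.6 CPM in ISO+L-NAME hearts and 57.0, 57.5 and 48.1 CPM in control hearts (0.06 ± 0.13, edgeR adjusted p = 0.872). For both of these genes the groups overlapped.

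The 3 immunoproteasome subunits were among the less abundant members, and none passed the test. Psmb8 had 14.0, 13.8 and 8.15 CPM in ISO+L-NAME hearts, against 13.7, 8.51 and 13.0 CPM in control hearts. Psmb9 had 13.0, 11.8 and 6.21 CPM in ISO+L-NAME hearts, against 15.5, 11.5 and 10.1 CPM in control hearts. Psmb10 had 19.3, 23.2 and 19.8 CPM in ISO+L-NAME hearts, against 23.3, 18.01 and 24.5 CPM in control hearts. For each of them the groups overlapped, and the lowest Psmb8 and Psmb9 values were those of the third ISO+L-NAME heart. The log2 changes were 0.03 ± 0.27, -0.25 ± 0.28 and -0.09 ± 0.19 for Psmb8, Psmb9 and Psmb10 (edgeR adjusted p = 0.977, 0.709 and 0.883). Their 95% intervals ran from 0.695-fold to 1.497-fold, from 0.560-fold to 1.26-fold and from 0.713-fold to 1.24-fold.

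Each immunoproteasome subunit was also set against the constitutive subunit whose place it takes, within the same library, which removes the scaling. The Psmb8 count was 15.6%, 15.5% and 8.30% of the Psmb5 count in ISO+L-NAME hearts, and 12.3%, 8.25% and 13.6% in control hearts. The Psmb9 count was 23.9%, 20.5% and 10.6% of the Psmb6 count in ISO+L-NAME hearts, and 27.2%, 20% and 21.0% in control hearts. The Psmb10 count was 30.5%, 31.1% and 25.5% of the Psmb7 count in ISO+L-NAME hearts, and 26.8%, 20.1% and 29.8% in control hearts. The groups overlapped for all 3 ratios. Two-sided exact permutation tests gave p = 0.5 for each (0.5 adjusted over the 3 ratios), where 3 hearts against 3 cannot go below 0.1.

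**Figure D4:**
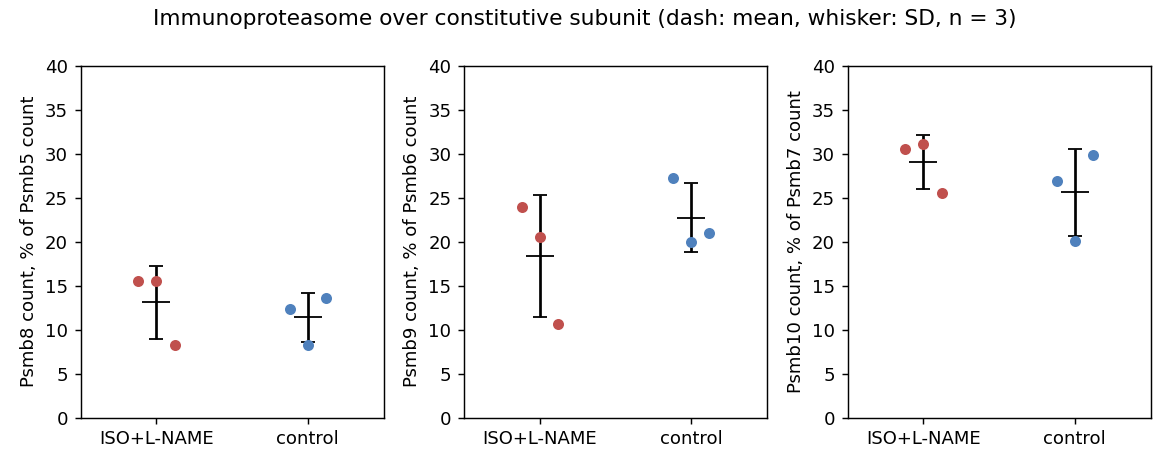
Count of each immunoproteasome subunit as a percent of the count of the constitutive subunit it replaces, in each heart; dashes are means and whiskers SD (n = 3). ISO+L-NAME means are 13.1%, 18.4% and 29.0% and control means 11.4%, 22.7% and 25.6% for Psmb8, Psmb9 and Psmb10, with overlapping points in each panel.

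The immunoproteasome values stand beside a rise in macrophage messages. Of 15 listed macrophage and leukocyte markers 10 were tested, and 4 rose while 0 fell, against 3.41% and 2.68% of all tested genes. The summed list lay between 355 and 449 CPM in ISO+L-NAME hearts and between 177 and 230 CPM in control hearts, and none of its genes was without a count. Lyz2, the lysozyme gene of macrophages, rose by 1.22 ± 0.14 (edgeR adjusted p = 1.04e-05). Of 11 lymphocyte markers none had enough counts to be tested, with Trbc2 at 0 counts, and the list summed to at most 3.37 CPM in any heart. The part of these cells in the proteasome values was not tested.

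Genes of antigen processing and the interferon-gamma response, which act with the immunoproteasome, were listed alongside it. Of 19 genes 14 were tested, and 0 rose and 1 fell, against 3.41% and 2.68% of all tested genes. Their median log2 change was -0.16. The gene that fell was Ifngr2, a chain of the interferon-gamma receptor, with 49.5, 46.0 and 41.9 CPM in ISO+L-NAME hearts and 72.5, 87.6 and 74.6 CPM in control hearts (-0.77 ± 0.13, edgeR adjusted p = 0.000676). Its groups were well apart, and on total counts alone it differed by -0.46 ± 0.13 (edgeR adjusted p = 0.0255). B2m, the light chain of MHC class I, differed by -0.23 ± 0.15 with overlapping groups (edgeR adjusted p = 0.452). Tap1, a subunit of the peptide transporter that shares its start region with Psmb9, had too few counts to be tested, 12, 8 and 9 in ISO+L-NAME hearts and 14, 4 and 6 in control hearts. Ifng itself had 0 counts in all libraries.

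The regulatory particle, taken as its 17 subunits that fit the naming rule, was the most abundant group. It summed to 1338, 1383 and 1333 CPM in ISO+L-NAME hearts and 1325, 1399 and 1418 CPM in control hearts. It made up 49.2% ± 0.470 of the counts of the 51 rows in ISO+L-NAME hearts and 48.3% ± 1.77 in control hearts (SD, n = 3 each). This share differed by less than the spread between control hearts. Its genes had a median log2 change of -0.03, with 7 above 0 and 10 below. Psmc3, a base ATPase, had the highest mean level of all members, with 151, 147 and 132 CPM in ISO+L-NAME hearts and 141, 175 and 156 CPM in control hearts. Its end lies inside Slc39a13 on the opposite strand, which had 127 counts in all. Psmc1, another base ATPase, was the separated member of the particle, at 133, 140 and 141 CPM in ISO+L-NAME hearts and 144, 153 and 154 CPM in control hearts (-0.12 ± 0.11, edgeR adjusted p = 0.627). Psmd14, the lid enzyme that cuts ubiquitin chains from substrates, had 22.3, 32.2 and 35.7 CPM in ISO+L-NAME hearts and 22.8, 29.0 and 23.6 CPM in control hearts. The groups overlapped, and the difference was 0.25 ± 0.19 (edgeR adjusted p = 0.571). The lid as a whole ran from -0.08 to 0.25 over its 8 genes, and the non-ATPase base subunits Psmd1, Psmd2 and Psmd4 from -0.18 to just below 0.

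**Figure D5:**
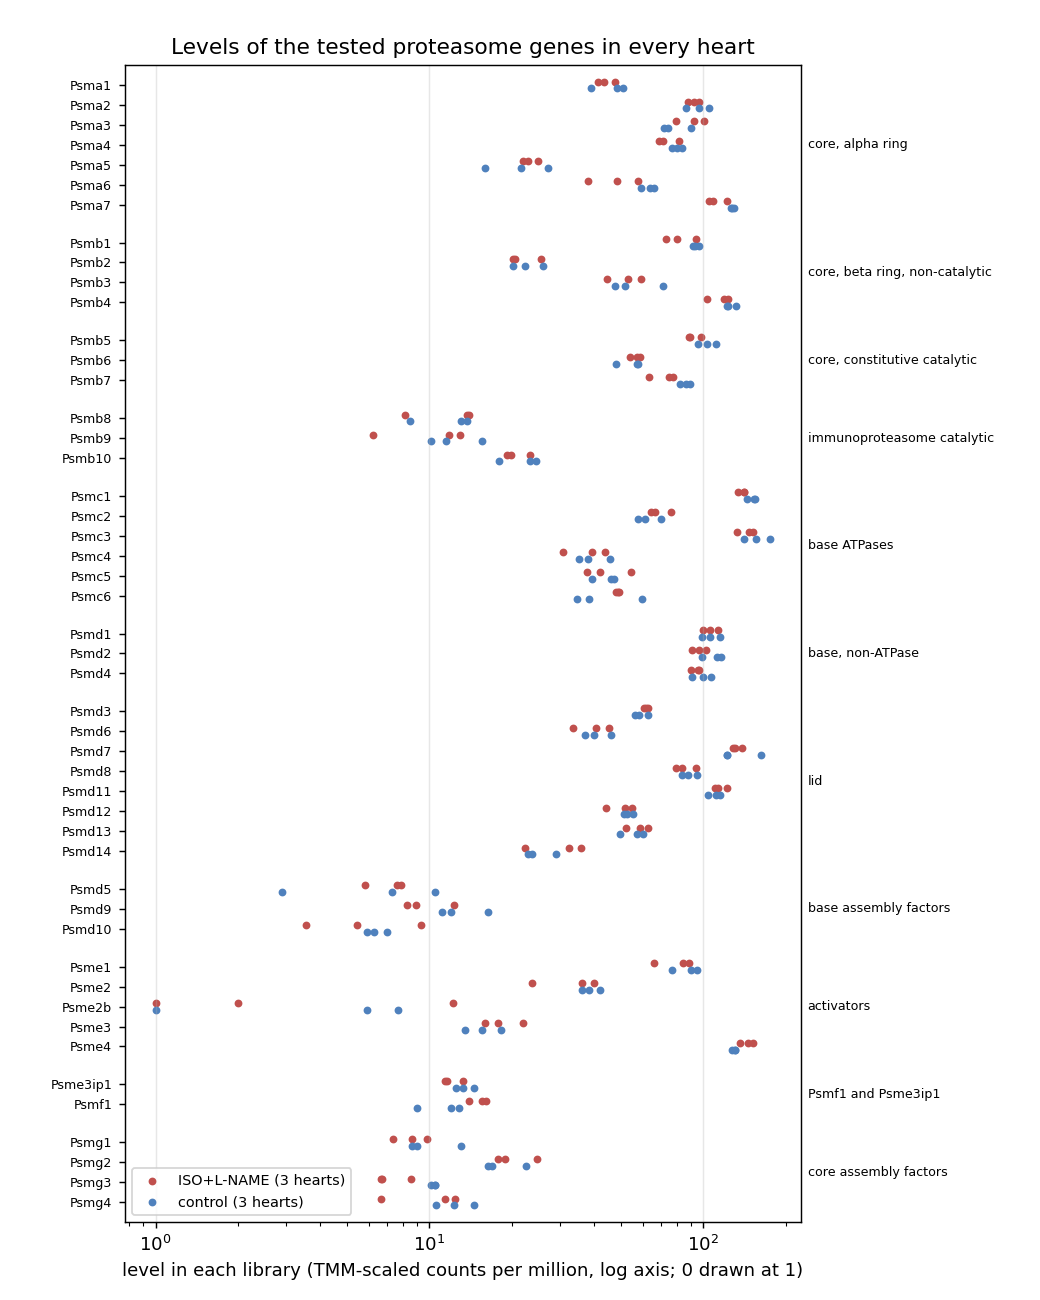
Level of each tested proteasome gene in every heart (TMM-scaled CPM, log axis), grouped by role, with ISO+L-NAME hearts drawn just above control hearts. Means per gene and group run from 4.54 CPM (Psme2b) to 157 CPM (Psmc3), and in 7 of the 48 genes the 2 groups do not overlap.

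Activators open the core gate without the ATPase cap. Psme4, which encodes a nuclear activator, was the third most abundant member and was separated between groups, at 136, 151 and 146 CPM in ISO+L-NAME hearts and 127, 130 and 131 CPM in control hearts. The difference of 0.16 ± 0.11 did not pass (edgeR adjusted p = 0.502). Psme3, the other nuclear activator, had 15.9, 22.0 and 17.9 CPM in ISO+L-NAME hearts and 18.2, 15.5 and 13.5 CPM in control hearts. Its groups overlapped (0.23 ± 0.21, edgeR adjusted p = 0.650). Psme1 and Psme2, the interferon-inducible pair that forms a joint ring, differed by -0.13 ± 0.13 and -0.22 ± 0.18 with overlapping groups (edgeR adjusted p = 0.693 and 0.597). Psme1 had 88.7, 84.5 and 66.0 CPM in ISO+L-NAME hearts and 94.9, 90.1 and 77.01 CPM in control hearts. The last 14 bases of Psme1 lie in Emc9 on the opposite strand, which had 156 counts in all.

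Psme2 has a near-identical copy, Psme2b, and the split of reads between them is uncertain. The GENCODE transcript of Psme2b matched Psme2 transcripts at up to 99.4% of aligned bases, with 5 mismatches over 794 bases. Psme2b had 6, 31 and 0 counts in ISO+L-NAME hearts and 13, 0 and 16 counts in control hearts, and Psme2 had 120, 60 and 93 counts in ISO+L-NAME hearts and 84, 84 and 75 in control hearts. Psme2b was thus at 0 in 1 heart of each group, which allows a share of up to 3.23% and 3.57% of the pair there, and at 34.1% of the pair in the second ISO+L-NAME heart. The fitted difference of Psme2b was -0.01 ± 0.75, and -2.06 without ISO+L-NAME 2. Summed, the pair had 126, 91 and 93 counts in ISO+L-NAME hearts and 97, 84 and 91 in control hearts, not scaled for library size. With TMM scaling, Psme2 had 39.9, 23.6 and 36.1 CPM in ISO+L-NAME hearts and 38.3, 42.0 and 36.1 CPM in control hearts. Psme2b had 1.99, 12.2 and 0 CPM, and 5.93, 0 and 7.70 CPM. On that scale the pair together was lower in every ISO+L-NAME heart than in every control heart, but only just. ISO+L-NAME 1 (39.9 CPM of Psme2 and 1.99 of Psme2b) and control 2 (42.0 and 0 CPM) were nearly equal. Counted as 1 gene the pair was not called, and 22.7% of all tested genes had groups without overlap.

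Psmf1, which encodes an inhibitor of core activation, had the largest positive difference of all members. It had 14.0, 16.1 and 15.5 CPM in ISO+L-NAME hearts, against 12.8, 9.01 and 12.0 CPM in control hearts. The groups were separated, and the difference of 0.42 ± 0.23 did not pass with TMM scaling (edgeR adjusted p = 0.362). At the other end stood assembly factors, with a median of -0.24 over 7 genes. Psmg3, a chaperone of core assembly, had 6.64, 6.68 and 8.54 CPM in ISO+L-NAME hearts and 10.5, 10.5 and 10.1 CPM in control hearts (-0.51 ± 0.27, edgeR adjusted p = 0.331), the lowest log2 change among members. Psmd9, a chaperone of the base, had 12.3, 8.26 and 8.93 CPM in ISO+L-NAME hearts and 16.4, 12.01 and 11.1 CPM in control hearts. It differed by -0.41 ± 0.26 with overlapping groups (edgeR adjusted p = 0.444). In all, 7 of the 48 tested members (14.6%) had groups that did not overlap, 2 higher and 5 lower, against 22.7% of all tested genes.

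Psma8, the core subunit of testis, had 1 count in ISO+L-NAME 3, 1 in control 3 and 0 elsewhere. Psmb11, the core subunit of thymus, had 0 counts in all libraries. Psmc3ip encodes a meiotic recombination factor and is not a proteasome subunit, and it had at most 4 counts in any library. These 3 rows were not tested. Psme3ip1 encodes a binding partner of Psme3, not a subunit, and differed by -0.15 ± 0.22 (edgeR adjusted p = 0.801). Without it the members' median was -0.05.

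Proteasome partners outside the naming pattern were also listed (core maturation factor, ubiquitin receptors, deubiquitinases and others). Of 14 partners 12 were tested, and 0 rose and 0 fell, with a median of -0.01. The share called among all tested genes was 6.10%, so 0 calls in a list this short does not set the partners apart from other genes. Pomp, the core maturation factor, had 123, 116 and 130 CPM in ISO+L-NAME hearts and 171, 153 and 121 CPM in control hearts, which overlap (-0.27 ± 0.13, edgeR adjusted p = 0.260). Nfe2l1, the transcription factor known to raise proteasome genes together when the proteasome is inhibited, had 150, 130 and 150 CPM in ISO+L-NAME hearts and 138, 121 and 135 CPM in control hearts. The groups overlapped (0.13 ± 0.11, edgeR adjusted p = 0.630), and on total counts alone it was called higher (0.43 ± 0.12, edgeR adjusted p = 0.0212). Of 13 genes on the list of proteasome transcription, Nfe2l1 included, 12 were tested and none was called, with a median of 0.15. This list too is short beside the 6.10% called among all tested genes.

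Ubb, a polyubiquitin gene that supplies the tag read by the proteasome, had 294, 268 and 292 CPM in ISO+L-NAME hearts and 320, 313 and 332 CPM in control hearts. Its groups were separated without passing (-0.17 ± 0.10, edgeR adjusted p = 0.401).

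The promoters of the members were searched for motifs of factors known to act on proteasome or interferon-inducible genes. RefSeq windows (GRCm38.p6, 250 bases before to 50 after each start) were found for 43 of the 51 members, and 5 motifs were searched on both strands, with no overlap between matches of different motifs in members' windows. The core of the antioxidant response element bound by Nfe2l1, TGACNNNGC, was in 6 of 43 members (14.0%) and in 14.0% of all 27025 symbols with a window. The CCAAT box was in 37.2% of members and 41.1% of all. The ETS core CGGAAG was in 24 members (55.8%), against 18.8% of all symbols. The gamma-activated site TTCNNNGAA was in 6.98% of members against 9.55% of all, and the core of the interferon-stimulated response element in 11.6% against 3.99%. The members with that last core were Psmb3, Psmd4, Psmd9, Psme1 and Psmg4, with no immunoproteasome subunit among them. Members' windows were richer in G and C, with a median of 57.3% over their 47 windows against 52.7% over all 32851 windows, and the shares were not matched for this. A match from a constitutive, an immunoproteasome and an activator gene follows, 5′ to 3′, with the motif in capitals, to place these letters beside genes described above.
Psmb5: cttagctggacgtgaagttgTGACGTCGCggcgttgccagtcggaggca
Psmb8: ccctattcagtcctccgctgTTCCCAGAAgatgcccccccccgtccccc
Psme4: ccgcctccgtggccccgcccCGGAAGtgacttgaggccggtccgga
The Psmb5 stretch is chr14:54618014-54618062 on the minus strand and holds TGACNNNGC from 47 to 39 bases before the start. The Psmb8 stretch is chr17:34198078-34198126 on the plus strand and holds TTCNNNGAA from 97 to 89 bases before the start. The Psme4 stretch is chr11:30771703-30771748 on the plus strand and holds CGGAAG from 52 to 47 bases before the start. None of these 3 genes was called in the comparison with TMM scaling.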

How the data were processed

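Libraries were made from heart RNA with a 3′-end kit (QuantSeq, forward), per the labels' protocols. The submitters' processing notes name bcl2fastq and GRCm39. Of aligner, counter, annotation release, strand setting and molecular identifiers, none is given in the sources used here. The counts deposited by the authors are whole numbers for each gene in each library, per the file headers, and these were analysed. A second set of deposited columns, headed CPM, is a signal equal to the counts times 1 constant per library, and it was not used.

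Low genes were removed by filterByExpr (at least 10 counts, at least 15 in total). TMM factors were 0.857 to 1.15. The test was the two-sided quasi-likelihood F test of edgeR (version 4.0.16, R 4.3.3), with group as its term, on all 6 libraries and at a Benjamini-Hochberg threshold of 0.05. SE was derived as |log2| / sqrt(F), and intervals are 95%. Ratios of 2 genes were tested on log2 values with a pseudocount of 0.5. The test was checked on simulated data, with changes set as often up as down and no shift in the mitochondrial share. That check therefore does not bear on the choice of scaling. Libraries of 1 group differed beyond sampling noise (chi-square over its degrees of freedom 2.10 to 3.42). The limit at a count of 0 (3 counts) covers counting error only.

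The members and gene lists were chosen with earlier results of these data known. Values in every library are given for members past the threshold (none), the 6 catalytic subunits, the 3 largest and 3 smallest log2 changes, activators and inhibitor. Members with separated groups or the highest level were added after their values were seen. Alternatives changed the scaling (RLE, or total counts alone), the filter (none, or at least 5 CPM on average), the tool (a robust fit, DESeq2 1.42.0, limma-voom with limma 3.58.1), the genes (without mitochondrial ones) and the libraries (each in turn left out), or added the replicate number as a block. Counting Psme2 and Psme2b as 1 gene was added after seeing the data. The list of ubiquitin supply and delivery is not reported here as a whole.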

Additional observations from a re-analysis of the deposited data

How the results depend on the processing

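The number of proteasome genes past the threshold stayed at 0 under every alternative except total counts alone, where it was 5; without each library in turn it was 0 in all fits. The members' median log2 change was 0.25 with total counts alone and -0.074 with limma-voom, and ran from -0.084 to -0.012 without each library in turn. Over all genes, 1479 passed with total counts alone, 335 with DESeq2, and 301 to 494 without each library in turn. With the replicate number as a block, 560 genes and 0 members passed and the members' median was -0.069. Correlations of deviations from the group means were 0.06, -0.03 and -0.01 between same-numbered hearts. Between differently numbered hearts they ran from -0.07 to 0.08, so these values showed no pairing by number. The log2 difference of the Psmb8 to Psmb5 ratio (0.17) ran from -0.04 to 0.47 without each library in turn, that of Psmb9 to Psmb6 (-0.38) from -0.60 to -0.03, and that of Psmb10 to Psmb7 (0.19) from 0.03 to 0.31. Counts per library limit the rarer members: the 95% intervals of Psmg3 and Psme2b reach 2-fold, so they do not exclude a change of that size. Settings planned in case the table held no counts were not run.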

Other observations

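Psmb8 was lowest in the third ISO+L-NAME heart and the second control heart, at 8.15 and 8.51 CPM, and lay between 13.0 and 14.0 CPM in the other 4 hearts. The other immunoproteasome subunits shared this order only in part. Psmb9 was lowest among ISO+L-NAME hearts in the third, at 6.21 CPM, but among control hearts also in the third, at 10.1 CPM. Psmb10 was lowest among control hearts in the second, at 18.01 CPM. Among ISO+L-NAME hearts Psmb10 was lowest in the first, at 19.3 CPM, beside 19.8 CPM in the third. B2m, like Psmb8, was lowest in the third ISO+L-NAME heart and the second control heart, at 256 and 297 CPM, with 388 and 338 CPM in the other ISO+L-NAME hearts and 436 and 421 CPM in the other control hearts. H2-K1, an MHC class I heavy chain, had 107, 69.2 and 55.1 CPM in ISO+L-NAME hearts and 89.0, 59.5 and 82.8 CPM in control hearts. Cd74, the invariant chain of MHC class II, had 33.6, 28.3 and 2.33 CPM in ISO+L-NAME hearts and 25.1, 16.5 and 24.1 CPM in control hearts. Psme2b was at 0 counts in the third ISO+L-NAME heart and the second control heart and in no other. The pattern was noticed in the values and was not tested.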
